A study of Mus musculus with 7 samples.

Results

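Genes that encode HOX, MEIS and other self-renewal factors of hematopoietic stem cells (HSC) were followed in nascent RNA of GFI1+ IAHC cells, the CD31+cKIT+GFI1+ cells of the intra-aortic hematopoietic clusters. They are Hoxa5, Hoxa7, Hoxa9, Hoxa10, Hoxb4, Meis1, Hlf, Mecom and Hmga2, chosen by name, and are 9 of the 55487 genes in the raw count table. Of these 9, 4 (Meis1, Hmga2, Mecom and Hoxa9) had at least 10 counts in at least 2 libraries of one condition and were tested, as were 10311 genes in all. The cells came from the AGM region of E11.5 mouse embryos with the Gfi1:tomato reporter (strain labelled CD1/Gf1+). The sorted cells were first kept overnight in compE, a γ-secretase inhibitor that blocks the release of the active part of Notch receptors. They were then washed, split into sets of 300 to 400 and cultured for 4 h in methylcellulose without compE and with DMSO (washout, 3 libraries, numbers 1, 2 and 3), again with compE (2 libraries, numbers 1 and 2) or with Fc-JAG1, a recombinant form of the Notch ligand JAG1 (2 libraries, numbers 1 and 3). The uridine analog EU marked RNA made in those 4 h, which was captured, pre-amplified and sequenced. A shared number stands for cells of the same origin, which the labels call an embryo and the methods call a pool of embryos. The methods give 10 μM compE and 4 μg/ml Fc-JAG1 where the labels give 10 mM and 4 mg/ml.

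HOX proteins are homeodomain transcription factors that bind DNA together with TALE cofactors of the MEIS, PBX and PKNOX families, and HOXA9 and MEIS1 together sustain immature hematopoietic cells. HLF is a PAR bZIP transcription factor and MECOM (EVI1) a zinc finger factor of the PRDM family, and both mark and maintain HSC. HMGA2 is a chromatin architectural protein of fetal HSC, whose messenger RNA is a textbook target of let-7 microRNAs, themselves held back by LIN28.

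Total counts ran from 21652927 to 33974693 per library, but the libraries differed in how many genes they covered. At least 10 counts were found for 56.2% of tested genes in washout 1 and for 94.2% in washout 2, with the other libraries between. Washout 2, compE 2 and Fc-JAG1 1 stood at 90.5% or above, whereas the rest stayed at or below 71.1%. The libraries had no molecular identifiers and were pre-amplified, so that intervals and floors cover counting error only. A count of 0 allows up to 3 counts, or 0.0883 to 0.139 CPM (counts scaled to the library total) depending on the library. Of 12 markers of the sorted cells, 5 had at least 10 counts in every library, among them Kit and Runx1. Gfi1 itself had 0 counts in washout 1, in both compE libraries and in Fc-JAG1 3. The summed markers stood at 2202 to 4773 TMM-normalized CPM (scaled by edgeR's effective library size) in the washout, 2759 to 3056 with compE and 2377 to 3946 with Fc-JAG1. The 12 macrophage markers summed to 421 to 524 in the washout, 103 and 387 with compE and 508 and 501 with Fc-JAG1 1 and 3, with C1qc at 0 and Mrc1 at 3 counts or fewer throughout. The 2 Fc-JAG1 sums rested mostly on different genes. Lyz2 had 13012 counts in Fc-JAG1 1 and 601 in Fc-JAG1 3, and Cx3cr1 had 25 and 8268. DESeq2 called 3 of the 6 macrophage markers tested, Lyz2, Ctss and Mertk, lower with compE (3.67% of all tested genes were). Without compE 1 the log2 fold changes of Lyz2 and Ctss went from −7.67 and −6.76 to −1.10 and −2.13 and were no longer called, and the Mertk call was kept in 0 of the 7 fits that each left out 1 library. Mertk passed the filter through the washout group only. A DESeq2 call also needed at least 10 counts in at least 2 libraries of either condition compared (the count rule). A group of 2 libraries cannot meet this with 1 left out, so some calls were lost whatever their p. A gene to which DESeq2 gave no adjusted p in a fit also counted as not called there, as did Mertk in some of the 7 fits. DESeq2 also called Lyz2 higher with Fc-JAG1 than with compE (7.95, adjusted p = 0.0261, and 0.52 without compE 1). The 11 erythrocyte markers summed to 25.1 to 521 in the washout, 26.9 and 198 with compE and 106 and 184 with Fc-JAG1. Alas2 was at 0 throughout but lies wholly inside other gene spans, where nearly all genes were at 0. Markers of endothelium (10), mesenchyme (13), neural cells (12) and epithelium (8) summed to at most 30.0, 32.6, 21.8 and 19.4 in any library. The neural markers Sox2 and Tubb3 were at 0 throughout but, like Alas2, lie wholly inside other gene spans. Between Fc-JAG1 and the washout DESeq2 called Epor, an erythrocyte marker, higher (9.75, adjusted p = 0.00179) and Gja5 of endothelium and Acta2 of mesenchyme lower (adjusted p = 0.00165 and 0.00328), calls kept in 4, 0 and 2 of the 7 fits with a library left out. Gja5 and Acta2 passed the filter through the washout group only. DESeq2 gave Gja5 no adjusted p in any of these 7 fits, where its log2 difference ran from −7.58 to −6.24. The part of such other cells in the results was not tested. In these bulk samples fewer cells that transcribe a gene and less RNA per cell cannot be told apart.

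The counting could not reach every one of the 9 genes. Hoxa5 had 0 counts in all 7 libraries, and its whole span (chromosome 6, 52201754 to 52204587 of GRCm38) lies within the spans of Hoxa3 and Gm28308 on the same strand and of the antisense gene Hoxaas3. Across the genome, 12823 of 12827 genes wholly inside other gene spans, on either strand, had 0 counts in every library, against 15222 of 30191 genes with no overlap (50.4%). Among the genes wholly inside others that share no exon base with them, 9415 of 9417 were at 0, as when reads are counted over whole gene spans, introns included, and those in a shared stretch go to no gene. The 0 of Hoxa5 is therefore no measure of its transcription. Of 39 Hox genes, 12 lie wholly inside other spans and all 12 were at 0, and 24 of 39 were at 0 in all libraries.

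**Figure D1:**
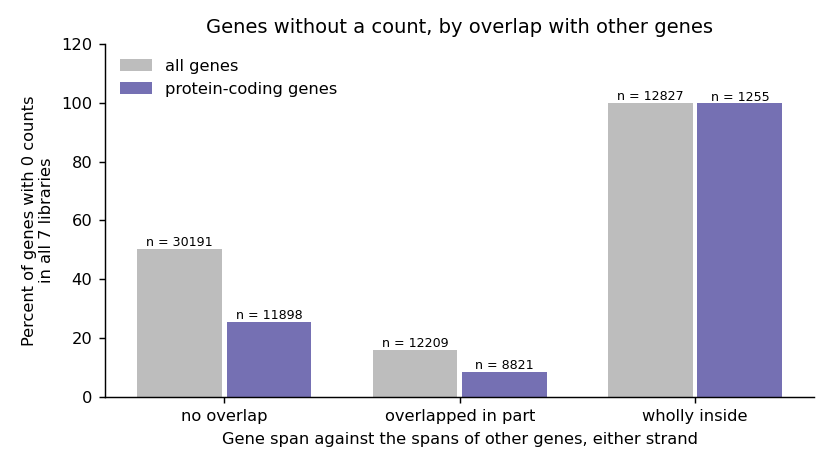
Percent of genes with 0 counts in all 7 libraries (vertical axis), for genes that overlap no other gene, overlap one in part or lie wholly inside other gene spans. Grey bars are all genes and purple bars protein-coding genes, and n is the number of genes in each bar. Wholly enclosed genes, Hoxa5 among them, were at 0 in 12823 of 12827 cases.

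The other members kept most of their span. Hoxa10, Hoxb4 and Hlf overlap no other gene. Hoxa7 keeps 92.0% of its span and 79.6% of its exons, since 586 bases at its 3′ end are shared with Hoxaas3. Hoxa9 loses the 85 bases of Mir196b, Hmga2 keeps 79.5% of its span beside 1700006J14Rik, 9230105E05Rik and Mir763, Meis1 keeps 93.5% beside 5 enclosed genes and Mecom 91.1% beside 7, including Mecomos. All of these enclosed genes had 0 counts in every library. Among them are 2 microRNA genes, miR-196b within Hoxa9, a microRNA known to target Hox transcripts, and miR-763 within Hmga2. All 11 let-7 genes also lie wholly inside other gene spans and had 0 counts. The mature sequences of both enclosed microRNAs and of 1 let-7 are shown because none of these could be read here, with the seed (bases 2 to 8) in capitals (RefSeq, GRCm38.p6). The 3 seeds differ.
miR-196b-5p, chr6:52230129-52230150, minus strand: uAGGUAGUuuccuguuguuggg
miR-763, chr10:120448052-120448073, minus strand: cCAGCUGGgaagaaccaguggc
let-7g-5p, chr9:106178846-106178867, plus strand: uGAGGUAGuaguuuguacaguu

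All 9 genes have promoter windows in RefSeq (11 windows, each 250 bases before to 50 after a transcript start). Since the culture conditions act on Notch, the windows were searched on both strands for TGGGAA, the core bound by the Notch effector RBPJ, and for the MEIS motif TGACAG and the HOX-PBX motif TGATTNAT, none of which overlapped another. TGGGAA was present in the windows of Hoxa9, Meis1 and Hlf, and in 25.6% of all 32851 windows. TGACAG was present in 1 Mecom window and in 19.2% of all windows, and TGATTNAT in no window of the 9 genes and in 3.22% of all. The Meis1 and Hoxa9 windows, 1 of the gene with the most even counts and 1 of the Hox gene with 10 counts in the most libraries, are given with the core in capitals.
Meis1, chr11:19018920-19019219, minus strand: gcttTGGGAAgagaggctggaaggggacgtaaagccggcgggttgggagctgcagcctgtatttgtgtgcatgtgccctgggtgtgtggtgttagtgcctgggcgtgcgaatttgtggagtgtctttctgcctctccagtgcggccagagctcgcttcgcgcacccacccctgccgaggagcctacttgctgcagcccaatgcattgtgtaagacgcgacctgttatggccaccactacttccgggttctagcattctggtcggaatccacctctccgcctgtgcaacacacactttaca
Hoxa9, chr6:52227321-52227620, minus strand: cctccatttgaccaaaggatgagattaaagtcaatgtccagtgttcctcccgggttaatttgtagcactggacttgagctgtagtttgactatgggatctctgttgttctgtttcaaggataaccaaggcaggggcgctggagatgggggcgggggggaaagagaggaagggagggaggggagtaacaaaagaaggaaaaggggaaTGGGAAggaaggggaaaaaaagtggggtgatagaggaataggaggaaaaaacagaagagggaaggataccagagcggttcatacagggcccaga
The core starts 246 bases before the Meis1 start and 44 bases before the Hoxa9 start. A match is a description of letters only.

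The 9 genes differed in how many libraries read them. Meis1 had at least 100 counts in all 7 libraries and Hmga2 in 6. Mecom reached 100 counts in 4 libraries, Hoxa9 and Hlf in 2, Hoxa10 and Hoxb4 in 1, and Hoxa7 and Hoxa5 in none. Such patchy reading was common: of 12771 genes that reached 100 counts anywhere, 19.7% did so in exactly 1 library, 10.4% in 2 and 15.3% in all 7. The number of the 9 genes with at least 10 counts was 3, 6 and 4 in washout 1, 2 and 3. It was 6 and 4 in the compE libraries and 3 and 4 in the Fc-JAG1 libraries.

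**Figure D2:**
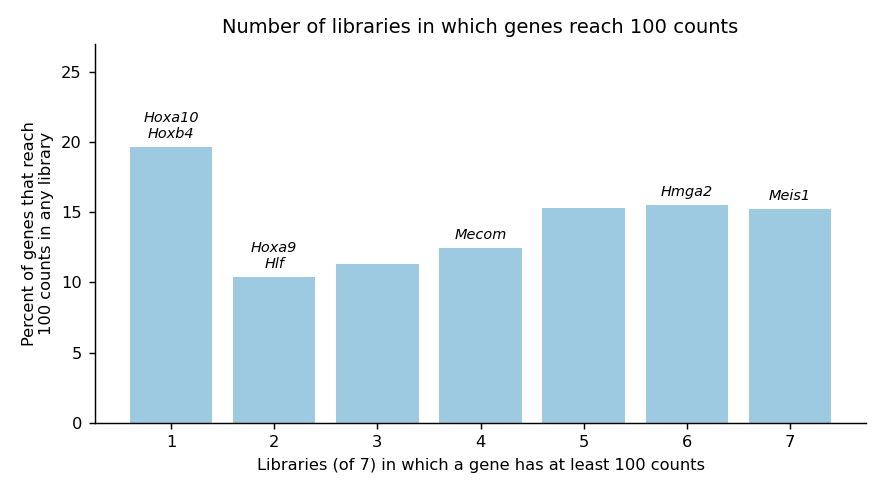
Bars give the percent of 12771 genes (those with at least 100 counts in any library) by the number of libraries in which they reach 100 counts. Gene names mark where 7 of the 9 genes fall, from Hoxa10 and Hoxb4 in 1 library to Meis1 in 7.

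Meis1 (ENSMUSG00000020160, chromosome 11, 18879817 to 19018985), the TALE homeodomain cofactor of HOXA9, was the most evenly read member. It had 273, 11080 and 9319 counts in washout 1, 2 and 3. The compE libraries 1 and 2 had 7641 and 11435, and the Fc-JAG1 libraries 1 and 3 had 9088 and 8693. Washout 1 was low and the other 6 libraries lay close together, at 249 to 368 TMM-normalized CPM against 15.9 in washout 1. The group means were 218 ± 176 in the washout (SD, n = 3), 299 ± 4.97 with compE (SD, n = 2) and 309 ± 84.0 with Fc-JAG1 (SD, n = 2), and both treated groups lay within the range of the washout or overlapped it. Over the 7 libraries its log2 CPM spanned 4.53, less than the median of 8.89 over all tested genes.

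Hmga2 (ENSMUSG00000056758, chromosome 10, 120361275 to 120476469) had the highest mean of the 9 genes, 295 ± 264 TMM-normalized CPM (SD, n = 7). Its counts were 14448, 8430 and 11 in washout 1, 2 and 3. The compE libraries had 7800 and 10185 and the Fc-JAG1 libraries 4294 and 7208. The washout held both the highest library (washout 1, 839 CPM) and the lowest (washout 3, 0.392 CPM), so that neither treated group stood apart from it. By mean level 94.5% of tested genes lay below Hmga2 and 93.2% below Meis1. Their low libraries were different ones of the same condition, and the Pearson correlation of their log2 CPM over the 7 libraries was −0.37, a description over libraries that differ in coverage.

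Mecom (ENSMUSG00000027684, chromosome 3, 29951296 to 30548008) had 46, 593 and 38 counts in washout 1, 2 and 3. Its counts were 1851 and 805 with compE and 34 and 4104 with Fc-JAG1. The compE libraries, at 73.2 and 20.8 TMM-normalized CPM, lay above all washout libraries (2.67, 16.4 and 1.35), whereas the Fc-JAG1 libraries held both the lowest and the highest value of the series (0.933 and 174). Hlf (ENSMUSG00000003949, chromosome 11, 90336536 to 90390895) had 2, 756 and 5 counts in the washout, 776 and 0 with compE, and 1 and 1 with Fc-JAG1. It was high in washout 2 and compE 1 alone, which share neither condition nor number, and it did not pass the filter.

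Among the HOX genes, Hoxa9 (ENSMUSG00000038227, chromosome 6, 52223100 to 52231089) had 0, 1103 and 0 counts in washout 1, 2 and 3. Its counts were 23 and 716 with compE and 0 and 10 with Fc-JAG1. Nearly all of its reads came from washout 2 and compE 2, which share number 2, a number that no Fc-JAG1 library of this set has. Hoxa10, its neighbor in the cluster (chromosome 6, 52231197 to 52240854), had 308 counts in washout 2, 1 in Fc-JAG1 3 and 0 elsewhere. Hoxa7 (chromosome 6, 52214491 to 52221854) had 1, 7 and 1 counts in the washout, 78 and 0 with compE, and 1 and 0 with Fc-JAG1. Hoxb4 (chromosome 11, 96318267 to 96321638), which enhances HSC expansion when overexpressed, had 2466 counts in washout 3, 2 in Fc-JAG1 3 and 0 in the other 5 libraries. Each of Hoxa7, Hoxa10 and Hoxb4 thus took 90.7%, 99.5% and 99.9% of its summed CPM from 1 library, and none passed the filter. Of the other Hox genes, 2 reached 10 counts in any library, Hoxb8 with 39 in compE 2 and Hoxb9 with 73 in washout 3.

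**Figure D3:**
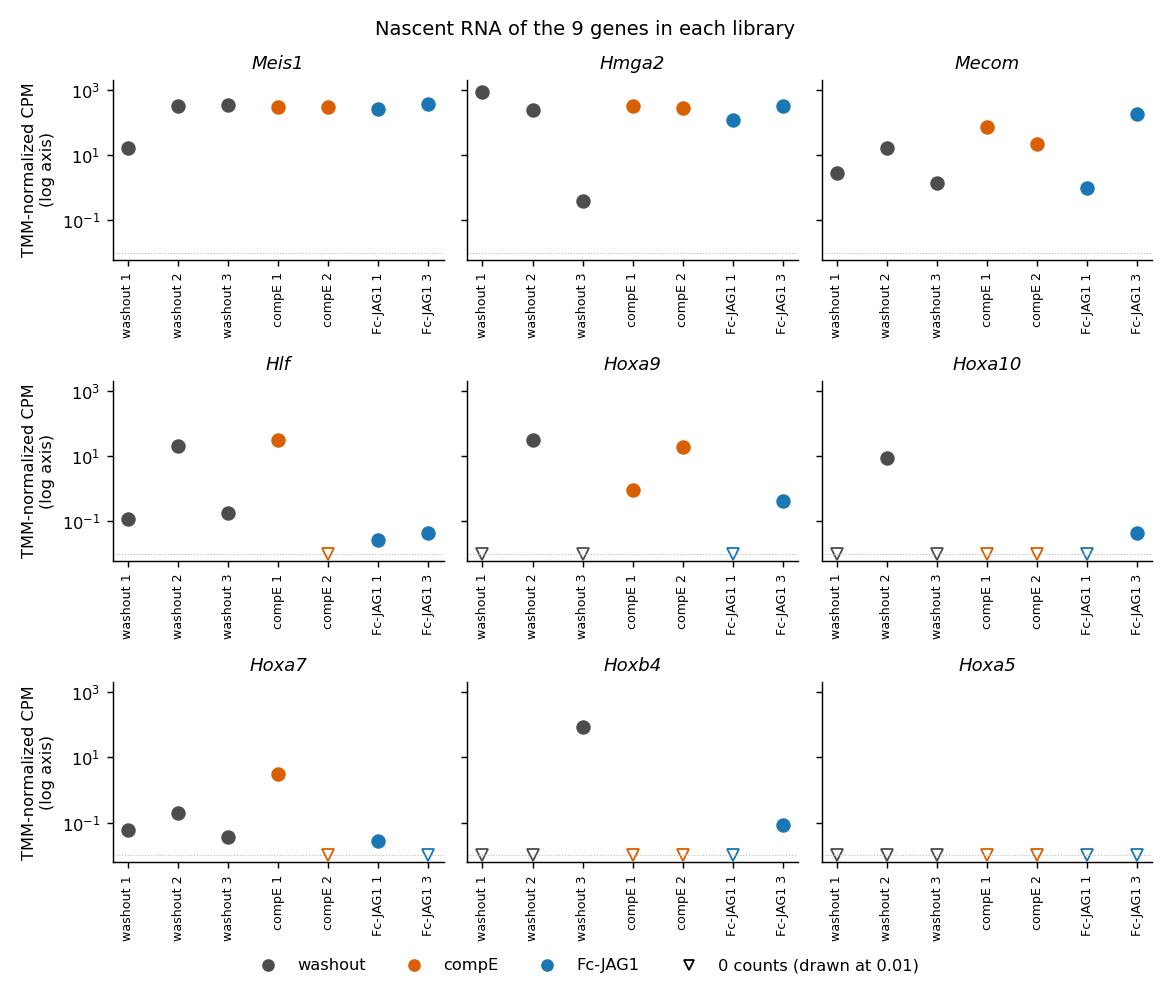
TMM-normalized CPM (log axis) of each of the 9 genes in each of the 7 libraries, grey for washout, orange for compE and blue for Fc-JAG1, with open triangles for 0 counts (drawn at 0.01). Meis1 lies at 249 to 368 in 6 libraries and at 15.9 in washout 1, Hmga2 at 0.392 in washout 3 and at 118 to 839 elsewhere, and the HOX genes have most of their reads in 1 or 2 libraries.

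Per kilobase of gene span, the mean levels ran from 3.73 TMM-normalized CPM for Hoxb4 through 2.56 for Hmga2, 1.92 for Meis1, 0.901 for Hoxa9, 0.137 for Hlf, 0.127 for Hoxa10 and 0.0692 for Mecom to 0.0659 for Hoxa7. The first place of Hoxb4 rested on washout 3. By the median over the libraries, an alternative chosen after the data were seen, Hmga2 (2.28) and Meis1 (2.17) led, followed by Hoxa9 (0.0530) and Mecom (0.0275), and Hoxb4 was at 0. Per kilobase of merged exons Hmga2 (43.6) and Meis1 (25.4) came first and Hoxb4 (4.90) next. The ranges over the libraries of all neighbors in the first order overlapped, so that no neighboring pair differed beyond its spread.

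With compE, compared with the washout to ask what blocked Notch release during the 4 h does, no member passed the test. In edgeR's quasi-likelihood test, 0 of the 4 tested members and 0 of 10311 genes (0%) had an adjusted p under 0.05, and at an unadjusted p under 0.05 there were 0 members and 273 genes (2.65%). The Wald test of DESeq2, which the study used, was fitted with the same model and called 0 of the 4 members, beside 962 genes (9.33%). The standard errors given for edgeR are the absolute log2 fold change divided by the square root of the F statistic of its test. In edgeR, Mecom had the largest log2 fold change of the 4, 3.88 (standard error 3.09, edgeR adjusted p = 1.00, DESeq2 adjusted p = 0.362). It was also the 1 member whose groups did not overlap, as in 17.7% of all tested genes. Between libraries of the same number, Mecom was 27.4 times as high in compE 1 as in washout 1 and 1.26 times as high in compE 2 as in washout 2, and without compE 1 its log2 fold change was 0.32. Meis1 had a log2 fold change of 1.32 (standard error 1.68, edgeR adjusted p = 1.00), which was −0.078 without compE 1. Hmga2 stood at −0.20 (standard error 1.57, edgeR adjusted p = 1.00), and at 2.98 without washout 1. Hoxa9 stood at −0.15 in edgeR (standard error 2.48, adjusted p = 1.00) and at 4.88 in DESeq2 (adjusted p = 0.282), with 0 counts in 2 of the 3 washout libraries. The macrophage sum was lowest in compE 1 (103), the library with the higher Mecom value of the 2, and its part in the result was not tested.

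With Fc-JAG1, compared with the washout to ask what added JAG1 does, no member passed the test either. EdgeR called 0 of the 4 members and 0% of genes at an adjusted p under 0.05, and 0 members and 526 genes (5.1%) at an unadjusted p under 0.05. DESeq2 called 0 of the 4 members, beside 2108 genes (20.4%). Over all tested genes the edgeR log2 fold change had a median of 0.44 under TMM scaling. That median was 0.066 when DESeq2's size factors were used instead and 0.70 with total counts only, and the values here are read against that shift. Meis1 stood at 1.16 (standard error 1.67, edgeR adjusted p = 1.00) and at 0.068 without washout 1. Hmga2 stood at 2.06 (standard error 4.17, edgeR adjusted p = 1.00). It was 7.12 times as high in washout 1 as in Fc-JAG1 1 and 779 times as high in Fc-JAG1 3 as in washout 3, so that the 2 pairs went opposite ways. Without Fc-JAG1 1, DESeq2 called Hmga2 higher (log2 fold change 9.58, adjusted p = 0.00666), with washout 3 (11 counts) and Fc-JAG1 3 then the 1 pair of the same number. Without washout 3 it was −3.21 in DESeq2 and −2.48 in edgeR. Mecom stood at 2.36 (standard error 4.90, edgeR adjusted p = 1.00), with the pairs again opposite, 2.86 times as high in washout 1 as in Fc-JAG1 1 and 128 times as high in Fc-JAG1 3 as in washout 3. Without Fc-JAG1 3 it was −3.46. Hoxa9 stood at −0.94 (standard error 5.60, edgeR adjusted p = 1.00) in edgeR and at 1.51 in DESeq2 (adjusted p = 0.768). No member had groups without overlap, against 17.3% of tested genes.

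**Figure D4:**
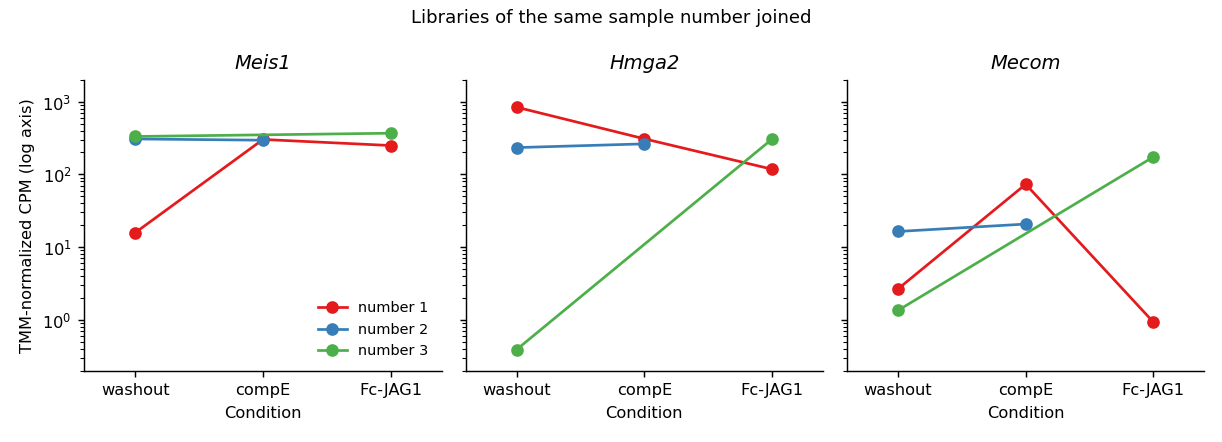
TMM-normalized CPM (log axis) of Meis1, Hmga2 and Mecom by condition, with libraries of the same sample number joined by a line (red 1, blue 2, green 3). For Hmga2 and Mecom number 1 is lower and number 3 higher with Fc-JAG1 than in the washout, and for Meis1 the line of number 1 starts at 15.9.

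Between Fc-JAG1 and compE, the 2 treatments themselves, edgeR called 0 of the 4 members and 0% of genes at an adjusted p under 0.05, and 0 members and 289 genes (2.8%) at an unadjusted p under 0.05. DESeq2 called 0 of the 4, beside 1175 genes (11.4%). Meis1 differed least, by −0.16 on the log2 scale (standard error 1.62, edgeR adjusted p = 1.00). The log2 differences of Hmga2, Mecom and Hoxa9 were 2.26, −1.52 and −0.79 with standard errors of 4.32, 5.13 and 5.69 (edgeR adjusted p = 1.00 for each). Hoxa9 had groups without overlap, 0.910 and 18.5 TMM-normalized CPM with compE and 0 and 0.424 with Fc-JAG1, as did 30.4% of tested genes, and the sign of its fitted difference changed without compE 1 (6.81) or Fc-JAG1 1 (6.89). Hoxa9 passed the filter through the compE group only. Hmga2 stood at 308 and 263 TMM-normalized CPM with compE and at 118 and 305 with Fc-JAG1, so that the groups overlapped. It was called higher by DESeq2 without Fc-JAG1 1 (log2 fold change 10.43) and stood at −2.36 without washout 3. The model includes sample number, and Fc-JAG1 3, the library left in the first of these fits, shares its number with no compE library. It shares it with washout 3, where Hmga2 had 11 counts. Without Fc-JAG1 1 Mecom stood at 4.79 in edgeR. The 3 comparisons share libraries, and their values are given side by side only.

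**Figure D5:**
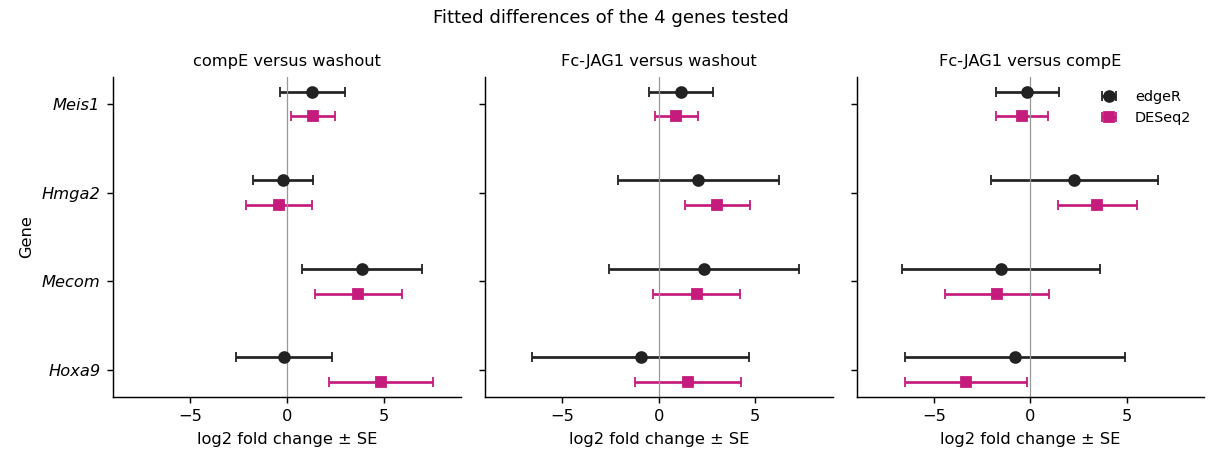
Fitted log2 fold change (horizontal axis) with its standard error for the 4 tested genes in the 3 comparisons, black circles for edgeR and pink squares for DESeq2. The edgeR standard error is the absolute log2 fold change divided by the square root of F, so the bars of the 2 tools differ in kind. No gene had an adjusted p under 0.05 in either test, and the 2 tests give Hoxa9 opposite signs in both comparisons with the washout.

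Genes that work with the 9, or belong to their families, were taken from lists. EdgeR called no gene of any of the following lists at an adjusted p under 0.05 in any comparison, and at an unadjusted p under 0.05 it counted 2 genes, Meis2 and Pbx4. Both passed the filter through the Fc-JAG1 group only. A gene with few counts elsewhere could be tested only if 1 group was high, so its difference is partly set by the filter. The DESeq2 calls below are read beside its shares over all tested genes, 5.66% higher and 3.67% lower with compE, 15.7% higher and 4.74% lower with Fc-JAG1, and 9.18% higher and 2.21% lower between Fc-JAG1 and compE. On data simulated with the dispersion of these libraries for Fc-JAG1 versus washout, DESeq2 called many genes that had not been changed, and edgeR found few of those that had. The simulation built in no effect of sample number and no difference in coverage between libraries, so it shares these data's dispersion but not their uneven coverage. Of the 35 DESeq2 calls of 23 listed genes, 0 were kept in all 7 fits that each left out 1 library, the most kept being in 5, and 8 turned direction in at least 1 fit. Some of these losses came where DESeq2 gave no adjusted p, as for Meis2 in some fits. Others came from the count rule alone, as for Pknox1 with compE, which stood at 12.1 without compE 2. The number of calls kept is thus partly fixed by the size of the groups.

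Of 11 TALE cofactors, 10 were tested, and with Fc-JAG1 against the washout DESeq2 called 4 higher and 1 lower (median log2 fold change 2.67, against 0.41 over all tested genes). Meis2, a close relative of Meis1, had 49 and 67 counts with Fc-JAG1 and at most 9 in every other library, a log2 fold change of 4.12 in DESeq2 (adjusted p = 0.0139) and 4.43 in edgeR (standard error 1.65, adjusted p = 0.830). For Pbx4 the Fc-JAG1 libraries held 34 and 318 counts and no other library more than 2 (5.68 in DESeq2, adjusted p = 0.00322). Both were high in the Fc-JAG1 libraries alone, at low counts, and without those values neither would have passed the filter. Their test results are therefore no separate support for a difference. Meis2 was called in 0 of the 7 fits with a library left out and Pbx4 in 1, the fit without washout 1. In some of these fits DESeq2 gave Meis2 no adjusted p, and its log2 difference from the washout ran from 2.36 to 6.29. Pknox1 had 1, 1858 and 0 counts in the washout and 2160 to 3806 in every treated library, and was called higher with compE (9.49, adjusted p = 0.00628) and with Fc-JAG1 (10.80, adjusted p = 0.000804) in DESeq2. Without compE 1 its difference with compE was 0.61 and no longer called. Meis3 had 9, 632 and 1489 counts in the washout and 0 in all treated libraries. DESeq2 called it lower with compE (adjusted p = 0.00628) and with Fc-JAG1 (adjusted p = 0.000993). Meis3 passed the filter through the washout group only, so these calls too are no separate support for a difference. Both were lost without washout 2 or washout 3 among others, where Meis3 could not meet the count rule. Without washout 2 the Fc-JAG1 call was lost through that rule alone, at a log2 difference of −10.5. The compE call failed on the adjusted p as well in both fits, as did the Fc-JAG1 call without washout 3. DESeq2 called Tgif1, a TALE repressor, higher with Fc-JAG1 (7.30, adjusted p = 0.0285) at counts of 0, 2719 and 8779 in the washout and 580 and 2352 with Fc-JAG1, and its difference was −1.68 without Fc-JAG1 1. Between Fc-JAG1 and compE DESeq2 called Meis2 and Tgif1 higher.

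Of 34 listed names of regulators of Hox gene chromatin, 33 matched a gene in the count table, and 24 were tested. DESeq2 called 1 higher and 0 lower with compE, Mllt10, a partner of the histone methyltransferase DOT1L, with 10969 and 4599 counts against 14, 3573 and 1255 in the washout (DESeq2 log2 fold change 5.41, adjusted p = 0.0157, and 0.21 without compE 1). With Fc-JAG1 it called 4 higher and 0 lower, Men1 and Mllt1, which work with MLL complexes and in transcript elongation, the histone demethylase Kdm6a and the acetyltransferase Kat6a, of which Men1 and Kat6a were also higher than with compE. Men1 and Kat6a turned to −0.46 and −0.78 without Fc-JAG1 1, Mllt1 to −0.90 without washout 3, and Kdm6a stood at 0.51 without washout 3. The DESeq2 medians of the 24 were 0.30, 0.23 and 1.08 in the 3 comparisons, against −0.27, 0.41 and 0.38 over all tested genes. Kmt2a (MLL1) itself and the Polycomb subunit Ezh2 were not called.

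Of 14 PRDM genes, the family of Mecom, 10 were tested. With compE DESeq2 called Prdm9, the meiotic histone methyltransferase, higher (0, 106 and 0 counts in the washout, 4886 and 697 with compE) and Prdm10 lower (203, 170 and 31 against 6 and 10). With Fc-JAG1 it called Prdm11 higher (3, 838 and 2 against 763 and 264). Between Fc-JAG1 and compE it called Prdm10, Prdm11 and Prdm2 higher and Prdm9 lower. Prdm9 passed the filter through the compE group only, and Prdm11 through the Fc-JAG1 group only. Prdm10 with 2409 and 685 counts in the Fc-JAG1 libraries was above every other library, with a log2 difference from compE of 8.21 (DESeq2 adjusted p = 0.00127, edgeR adjusted p = 1.00). The call was lost without compE 1, at a difference of 7.47. Without Fc-JAG1 1 or 3 the count rule could not be met, and the difference was 9.81 or 7.25. The DESeq2 medians of the 10 were 0.58, 1.43 and −0.58 in the 3 comparisons, against −0.27, 0.41 and 0.38 over all tested genes. Of the 4 PAR bZIP and related factors, the family of Hlf, 2 were tested, and DESeq2 called Nfil3, a repressor of the same DNA motif, higher with Fc-JAG1 than in the washout and with compE (0, 2048 and 2 counts in the washout, 0 and 1369 with compE, 1910 and 306 with Fc-JAG1). Nfil3 passed the filter through the Fc-JAG1 group only, and without either Fc-JAG1 library it could not meet the count rule. Its differences from the washout and compE were then 7.48 and 8.29 without Fc-JAG1 1 and 11.6 and 12.4 without Fc-JAG1 3. Without Fc-JAG1 1 both calls failed on the adjusted p as well. The call against compE was also lost without compE 1, at a difference of 10.2.

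Of 21 listed names of the LIN28, let-7 and HMGA2 axis, 19 matched a gene in the count table, and 18 were tested. With compE DESeq2 called Arid3a, an AT-rich DNA-binding transcription factor, higher and Tut7, a terminal uridylyltransferase of let-7 precursors, lower. Arid3a had 1, 5789 and 1 counts in the washout and 3076 to 6445 in the treated libraries, and its DESeq2 difference with compE was 8.37 (adjusted p = 0.00510) and −0.39 without compE 1. Tut7 had 3080, 2458 and 2814 counts in the washout, 0 and 2292 with compE and 1995 and 3 with Fc-JAG1, and its difference with compE was no longer called without compE 1 among others. With Fc-JAG1 DESeq2 called 3 higher and 0 lower, Arid3a, Dicer1 and Igf2bp2. Igf2bp2, an RNA-binding protein whose gene is a known target of HMGA2, stood at 286, 4884 and 124 counts in the washout, at 260 and 5010 with compE and at 5160 and 12161 with Fc-JAG1 (DESeq2 log2 fold change 4.61, adjusted p = 0.0121), and was also called higher than with compE, calls kept in 1 and 0 of 7 fits. Dicer1, which cuts microRNA precursors, turned to −0.18 without washout 3. The DESeq2 medians of the 18 were −0.44, −0.78 and −0.25 in the 3 comparisons, against −0.27, 0.41 and 0.38 over all tested genes. Neither Lin28b nor Hmga1 was called in any comparison, and reads of Hmga1 and its near-identical copy Hmga1b are uncertain.

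Of 27 other self-renewal factors of HSC, 19 were tested. Among those not tested, Lyl1 and Txnip lie wholly inside other gene spans. Their 0 counts are, as for Hoxa5, no measure of their transcription. DESeq2 called 0 higher and 1 lower with compE, Gfi1, with 0, 12 and 2477 counts in the washout and 0 and 0 with compE. Gfi1 passed the filter through the washout group only. Without washout 2 or 3 it could not meet the count rule, and its log2 difference was −24.1 or −3.94. With Fc-JAG1 DESeq2 called 3 higher and 0 lower, Ncoa7, Zfp521 and the immediate early gene Egr1, and between Fc-JAG1 and compE 0. Egr1 had 0, 1277 and 7211 counts in the washout and 2304 and 0 with Fc-JAG1, and its sign turned to −15.04 without Fc-JAG1 1. Ncoa7 had 22, 981 and 6 counts in the washout and 2010 and 3455 with Fc-JAG1 (DESeq2 log2 fold change 6.71, adjusted p = 0.00396), a call lost without washout 3 or Fc-JAG1 3, and Zfp521 was called in 0 of 7 fits. The DESeq2 medians of the 19 were −0.37, −0.27 and −0.48 in the 3 comparisons, against −0.27, 0.41 and 0.38 over all tested genes.

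For the 2 members with the highest mean level, the tested genes with the most similar pattern over the 7 libraries were sought by Pearson correlation of log2 CPM, as a description. Closest to Hmga2 were Epc2 (0.996), Dlk1 (0.995) and Ccnl1 (0.995), which had 7, 0 and 0 counts in washout 3, where Hmga2 had 11, and their highest count in washout 1, as did Hmga2. Closest to Meis1 were Wdr3 (0.998), Sem1 (0.998) and Pfdn4 (0.996), all with 0 counts in washout 1 and at least 1386 elsewhere. The points share 7 libraries of unequal coverage, and in each case 1 library lies far below the other 6.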

How the data were processed

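Nascent RNA of 7 libraries was analysed from the gene counts as deposited. According to their methods and the labels, the authors trimmed (cutadapt 4.2) and aligned the reads (STAR 2.7.8, GRCm38) and counted uniquely mapped reads per gene with featureCounts (Subread 2.0.1), giving whole-number counts that are not normalized. A further Fc-JAG1 library is not analysed here, and the authors' filtered and transformed tables were not used. Gene spans and overlaps came from GENCODE M21 (55227 of 55487 gene IDs matched). The 10311 genes that reached 10 counts in 2 or more libraries of a condition were tested with edgeR 4.0.16 (quasi-likelihood, TMM, sample number plus condition, all 7 libraries, Benjamini-Hochberg, threshold 0.05, R 4.3.3). DESeq2 1.42.0 with the same terms was an alternative, as were other scalings, filters, no sample number term and leaving out each library. A DESeq2 call also needed at least 10 counts in at least 2 libraries of either condition compared. Log2 CPM used a prior count of 2. Standard errors of edgeR were back-calculated as the absolute log2 fold change divided by the square root of F, and are unlike those that DESeq2 reports. Tested on simulated data for Fc-JAG1 versus washout, both tools recovered the changed genes at a low dispersion, but at the dispersion of these libraries edgeR found few of them and DESeq2 also called many genes that had not been changed. The simulated libraries had no effect of sample number and no built-in difference in coverage. Libraries of the same number came from the same embryo or pool per the labels and methods, and their deviations from the group means correlated between −0.0854 and 0.0915 over 5 pairs. In a group of 2 libraries the deviations mirror each other. Washout 1 thus gave 0.0766 with compE 1 and −0.0766 with compE 2, and pairs of different number are no separate comparison. The members and lists were chosen with earlier results of these data known. Named were all 9 members, list genes called by either tool (up to 5 per list and direction), the 3 genes most correlated with each of the 2 members of highest mean, and genes that overlap a member, and other genes named were chosen after their values were seen.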

Additional observations from a re-analysis of the deposited data

How the results depend on the processing

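With edgeR, 0 genes were called in each comparison in the main analysis and 0 members under every alternative run. Without the sample number as a replicate block, edgeR called 1 gene for Fc-JAG1 versus washout. The Wald test of DESeq2 with the replicate block called 962 genes for compE versus washout, 2108 for Fc-JAG1 versus washout and 1175 for Fc-JAG1 versus compE, and without the block 325, 388 and 190. With 1 library left out, these DESeq2 counts ran from 23 (without compE 1) to 1255, from 697 (without Fc-JAG1 3) to 1951 and from 90 (without compE 1) to 1071, and DESeq2 called 0 to 1 members for Fc-JAG1 versus washout and 0 to 1 for Fc-JAG1 versus compE, Hmga2 without Fc-JAG1 1.

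Directions that turned under other settings are given as log2 fold changes. For compE versus washout, Hoxa9 was 1.25 with all genes that have a count, 5.22 with the earlier version of edgeR's quasi-likelihood test, an alternative chosen after the data were seen, and 4.88 with DESeq2, which gave −0.13 without the replicate block. For Fc-JAG1 versus washout, Hoxa9 was 2.01 with that earlier version and 1.51 with DESeq2, which gave −5.27 without the block, and Hmga2 was −0.75 (edgeR) and −1.13 (DESeq2) without the block. For Fc-JAG1 versus compE, Meis1 was 0.11 with total counts only. Without the block it was 0.048 (edgeR) and 0.079 (DESeq2), Mecom was 0.89 and 0.92, and Hmga2 was −0.44 and −0.38. The cause was not tested. The replicate block changed no other direction of a member and no member's call. Of the members' edgeR values under other edgeR settings that kept all libraries, 64 kept their direction and 8 turned.

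With 1 library left out, edgeR log2 fold changes ranged for compE versus washout from −0.078 to 2.92 (Meis1), −0.64 to 2.98 (Hmga2) and −0.75 to 13.04 (Hoxa9), whereas Mecom kept its direction (0.32 to 7.43). For Fc-JAG1 versus washout they ranged from −2.48 to 9.59 (Hmga2), −3.46 to 6.9996 (Mecom) and −7.22 to 6.59 (Hoxa9), and for Fc-JAG1 versus compE from −1.85 to 2.12 (Meis1), −1.85 to 10.23 (Hmga2), −5.65 to 4.79 (Mecom) and −7.14 to 6.89 (Hoxa9). With DESeq2 the ranges for compE versus washout were −0.11 to 2.95 (Meis1), −0.85 to 3.85 (Hmga2) and −0.78 to 7.87 (Hoxa9). For Fc-JAG1 versus washout they were −0.095 to 1.94 (Meis1), −3.21 to 9.58 (Hmga2), −3.68 to 6.98 (Mecom) and −4.80 to 5.99 (Hoxa9), and for Fc-JAG1 versus compE −1.76 to 1.81 (Meis1), −2.36 to 10.43 (Hmga2), −6.02 to 4.64 (Mecom) and −7.06 to 3.66 (Hoxa9). Where a group is left with 1 library, that library is assumed to vary like the other groups. Such a group also cannot meet the count rule, which can lower the number of DESeq2 calls.

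With a minimum of 1 count instead of 10, 5 members were detected in washout 1, 5 in Fc-JAG1 1 and 7 in Fc-JAG1 3, and with a minimum of 100 counts 2 were detected in washout 3. Most values of the HOX genes lie at or under the floor of 3 counts, where a difference was not detectable. This floor covers counting error only, not the uneven coverage of the libraries, in which Hoxb4 had 2466 counts in washout 3.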
